A study of Ictidomys tridecemlineatus with 15 samples.

Results

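Retinal ganglion cells of the 13LGS, the 13-lined ground squirrel, whose retina is rich in cones, are described here from embryonic day 18 (E18) to E26, the last time point before birth. The cells were those that the deposited annotation calls RGC (retinal ganglion cell) in the E18, E21, E24 and E26 libraries. They numbered 5700 of the 19630 embryonic cells (29.0%), in a matrix of 53394 cells that held 8520 ganglion cells at all ages. Whole retinas were profiled by droplet-based single-cell RNA-Seq, in which a unique molecular identifier (UMI) tags every captured mRNA, and counts are therefore of molecules. Embryos were taken from captive females after timed matings, and their age was checked against the Theiler stages of mice. Sex, strain, the number of animals behind each library, and whether libraries of a time point came from separate animals or litters are not stated in the sources at hand. The p-values therefore measure the spread between libraries, which may be technical. E18 had 1 library, and E21, E24 and E26 had 2 each, called a and b here without reference to the replicate numbers in the labels. The 7 postnatal libraries set beside them (1 each at P4, P17 and P21, 2 each at P8 and P12) came from captive-bred litters and held 1383 ganglion cells.

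Ganglion cells are the projection neurons of the retina. They are the first neurons that its progenitors form, and their axons make up the optic nerve and carry the output of the retina to the brain. After leaving the cell cycle a ganglion cell first extends its axon and later adds dendrites, synapses and the ion channels of a firing neuron. Horizontal cells, inhibitory interneurons of the outer retina, are also among the early-born types. Primary retinal progenitor cells (RPCs) divide and renew themselves, and neurogenic progenitors are those about to form neurons.

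The libraries held 580 (E21b) to 1196 (E26a) ganglion cells, and their summed counts ranged from 7181360 to 12495373 UMIs per library, 66617158 UMIs in all. Of the 19573 cell barcodes in the embryonic libraries, 56 occurred in at least 2 libraries, 29 of them with a ganglion cell and 7 with ganglion cells in more than 1 library. Cells with more than 2 times the median UMI count of their own library and type, which could include doublets, made up 287 (5.04%) of the ganglion cells and were kept. The files do not pair gene names with matrix rows, so the ganglion cell label could not be checked against Pou4f2, Isl1, Sncg, Nefl and Gap43, and a gene is given by its matrix row, counted from 1. The label was checked instead by profile. When each cell was assigned to the nearest of 5 class means computed from the other libraries, 84.5% of the ganglion cells at E18, 93.4% and 90.5% at E21, and 98.0% to 99.2% at E24 and E26 fell nearest the ganglion cell mean. The annotation was itself made from the expression of these cells, so this is a description and not a test.

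The first comparison asks how large a part of the embryonic retina ganglion cells form as development proceeds. They made up 20.3% of all cells at E18 (95% Wilson interval 19.2% to 21.3%), 33.8% and 37.0% at E21, 25.7% and 41.3% at E24, and 30.7% and 32.2% at E26. E18 was lowest, and the 2 libraries of E24 lay further apart than any time points' means after E18, so no order among E21, E24 and E26 could be read. No relation of this share to embryonic day was detected (Spearman's rho = 0.09, exact two-sided permutation p = 0.857, adjusted p = 0.857 over 4 relations, n = 7 libraries; Pearson's r = 0.36, exact permutation p = 0.432, adjusted p = 0.432). These intervals cover counting error only, and shares of a library are not independent of each other.

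Among cells outside the primary progenitors, the ganglion cell share was highest early and lower late. It was 68.7% at E18 (1119 of 1630 cells, 95% Wilson interval 66.4% to 70.9%), 64.1% and 63.2% at E21, 43.4% and 61.4% at E24, and 42.2% and 46.6% at E26. The E18 and E21 libraries lay above all E24 and E26 libraries, although E24b was close to E21b. The share fell with embryonic day (rho = −0.90, exact two-sided permutation p = 0.0127, adjusted p = 0.0254; r = −0.86, exact permutation p = 0.0238, adjusted p = 0.0476; n = 7 libraries). E18 and either E21 library lie farthest from the median age, and r was −0.76 without E18 and E21a and −0.78 without E18 and E21b. The adjusted p of rho rose above 0.05 without any of E18, E21a, E21b, E24b and E26a, reaching 0.133 without E18.

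Ganglion cells outnumbered horizontal cells in every embryonic library, by a margin that narrowed with age. There were 44.8 ganglion cells per horizontal cell at E18, where only 25 horizontal cells were found, then 4.71 and 3.67 at E21, 1.67 and 2.84 at E24, and 1.46 and 1.47 at E26. E18 stood far above the rest, and the libraries of different time points did not overlap. The ratio fell with embryonic day (rho = −0.97, exact two-sided permutation p = 0.00317, adjusted p = 0.0127; r = −0.77, exact permutation p = 0.00159, adjusted p = 0.00635; n = 7 libraries), and r was −0.91 without E18 and E21a. Without E18 alone rho was −0.96 with an adjusted p of 0.0889. The libraries left were still in full order of age, and the unadjusted p was the smallest that so few libraries allow. Ganglion cells per neurogenic progenitor ranged from 2.30 at E18 to 5.57 in E26b, with 2.59 in E26a, and no relation to age was detected (rho = 0.39, exact permutation p = 0.413, adjusted p = 0.55; r = 0.49, exact permutation p = 0.263, adjusted p = 0.351; n = 7 libraries). A ratio of cell types cannot tell fewer ganglion cells from more of the other type.

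**Figure D1:**
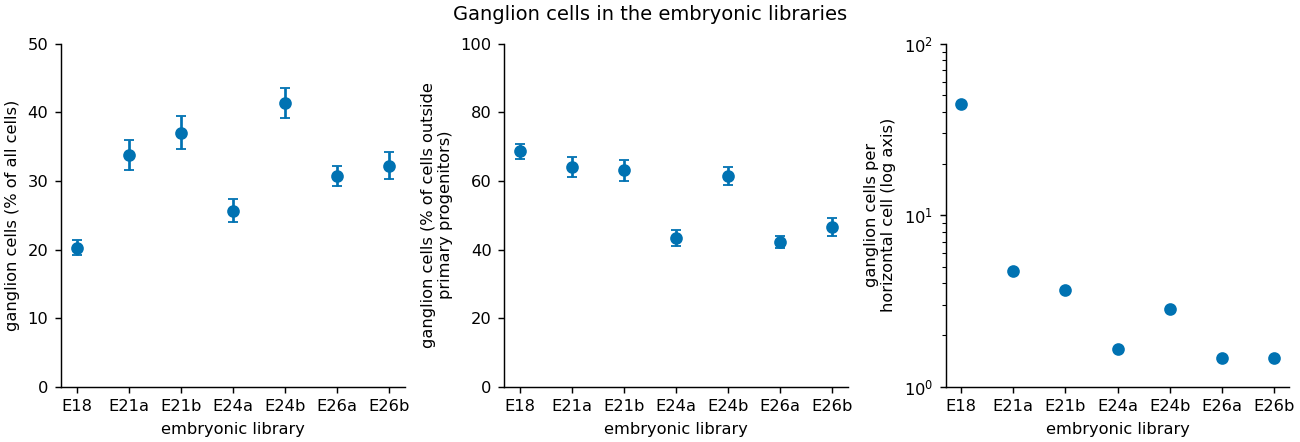
Ganglion cells in each embryonic library as a percentage of all cells (left), as a percentage of cells outside the primary progenitors (middle), both with 95% Wilson intervals for counting error, and as a number per horizontal cell on a log axis (right). The share of all cells was lowest at E18 (20.3%) and showed no steady course after it, the middle share ran from 68.7% at E18 to 42.2% in E26a, and the ratio to horizontal cells ran from 44.8 at E18 to 1.46 in E26a.

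Embryonic ganglion cells yielded more RNA molecules than their neighbours. The median ganglion cell held 7573 UMIs at E18, 10600.5 and 14075 at E21, 9271 and 14126 at E24, and 8692.5 and 12523 at E26. E18 was lowest, libraries of a single time point lay far apart, and no relation of depth to embryonic day was detected (rho = 0.17, exact permutation p = 0.73, adjusted p = 0.73; r = 0.23, exact permutation p = 0.614, adjusted p = 0.614; n = 7 libraries). Against classes of the same library, which share its depth, the ganglion cell median was 1.28 to 1.93 times that of early-stage neurogenic progenitors and 1.77 to 2.48 times that of horizontal cells, higher in 7 of 7 libraries in both cases (exact two-sided sign-flip permutation p = 0.0156, the smallest that 7 libraries allow, adjusted p = 0.0188 over 6 comparisons). Against early-stage primary RPCs it was 0.944 times at E18 and 1.03 to 1.61 times later, higher in 6 of 7 libraries (exact sign-flip permutation p = 0.0469, adjusted p = 0.0469), and with the mean per cell in place of the median the log2 difference was 0.05 (adjusted p = 0.641). That difference also lost its call without any single library but E18, with adjusted p of 0.0625 to 0.0938.

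These ratios widened from E18 to E26. The ganglion cell median was 1.77 times the horizontal cell median at E18, 1.93 and 2.01 times at E21, 2.19 and 2.31 times at E24, and 2.48 times in both E26 libraries, with no overlap between time points. The ratio rose with embryonic day (rho = 0.97, exact two-sided permutation p = 0.00317, adjusted p = 0.00794 over 5 relations; r = 0.98, exact permutation p = 0.00159, adjusted p = 0.00397; r = 0.97 without E18 and E21a; n = 7 libraries). The ratio to neurogenic progenitors rose likewise (rho = 0.97, exact permutation p = 0.00317, adjusted p = 0.00794; r = 0.94, exact permutation p = 0.00159, adjusted p = 0.00397; r = 0.91 without E18 and E21a; n = 7 libraries), but with the mean per cell its rho was 0.00. The ratio to primary RPCs rose as well by rho (0.90, exact permutation p = 0.0127, adjusted p = 0.0212; n = 7 libraries). Its Pearson's r was 0.94 by exact permutation (p = 0.00317, adjusted p = 0.00529) and 0.90 without E18 and E21a. The rho of this ratio lost its call with the mean per cell (adjusted p = 0.0556) and without any of E18, E21a, E21b, E24b and E26a (adjusted p up to 0.111). Without E18 alone the other 2 ratios gave rho = 0.96 with an adjusted p of 0.0556. For both, the libraries left stayed in full order of age, and the unadjusted p was the smallest that they allow.

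The excess of UMIs went with a broader set of detected genes. With every cell thinned to 3000 UMIs, the median ganglion cell detected 1522.5 gene rows at E18, 1600 and 1599.5 at E21, 1520 and 1574 at E24, and 1556.5 and 1614 at E26. Ganglion cells detected more rows than the other class in 7 of 7 libraries, on average by 84.4 ± 25.3 rows (SD, n = 7) against primary RPCs, 85.7 ± 36.0 rows against neurogenic progenitors and 112 ± 57.5 rows against horizontal cells (exact sign-flip permutation p = 0.0156 and adjusted p = 0.0188 each). Without thinning the ganglion cell medians ranged from 2854 to 4290 rows. Between 0 (E26b) and 31 (E18) ganglion cells per library were too shallow to be thinned, while in E26a 241 of 818 horizontal cells were. Detection at 3000 UMIs showed no relation to embryonic day (rho = 0.18, exact permutation p = 0.692, adjusted p = 0.73; r = 0.24, exact permutation p = 0.595, adjusted p = 0.614; n = 7 libraries).

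**Figure D2:**
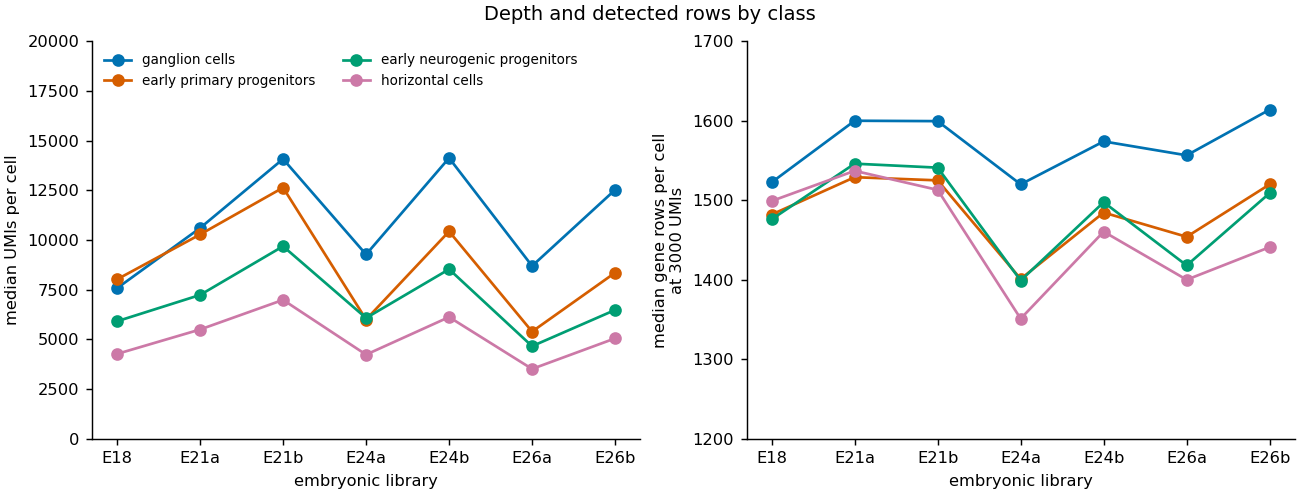
Median UMIs per cell (left) and median gene rows per cell after thinning to 3000 UMIs (right, axis starting at 1200) for 4 classes in each embryonic library; lines join points of a class and carry no time scale. Ganglion cells lie above the other classes everywhere except in UMIs at E18, where primary RPCs had 8019.5 and ganglion cells 7573.

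The E18 and E21 ganglion cells scored further toward the neurogenic profile than the later ones, on rows chosen from the other libraries. Each cell, thinned to 3000 UMIs, was placed by the percentage of its UMIs that fell in rows at least 2 times higher in ganglion cells than in early neurogenic progenitors, out of the UMIs in those rows and in the rows at least 2 times higher in the progenitors, with both sets taken from the other libraries (1332 to 1417 and 1077 to 1181 rows). The median ganglion cell scored 80.6% at E18, 86.4% and 85.9% at E21, 88.1% and 89.0% at E24, and 88.3% and 89.3% at E26. The lower tail differed more than the median. The 10th percentile was 52.5% at E18, 61.1% and 57.0% at E21, and between 79.2% and 83.2% in the E24 and E26 libraries, and neurogenic progenitors had medians of 25.8% to 33.2% and 90th percentiles of at most 46.0%.

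The assignment to class means was split by age in a similar way. At E18, 132 of 1119 ganglion cells fell nearest the neurogenic mean, and in the E21 libraries 32 of 622 and 38 of 580 did, against 2 to 10 cells in each E24 or E26 library. In none of the 7 libraries was a ganglion cell nearest the primary RPC mean, and at most 1.65% of the neurogenic progenitors (E26a) were nearest the ganglion cell mean. The class means for E18, and the 2 sets of rows behind its scores, came from later libraries only. For each E21 library most of the other libraries were of E24 or E26. For each later library the early and late ones were equal in number. How much of the age difference in scores and assignments follows from this was not tested.

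**Figure D3:**
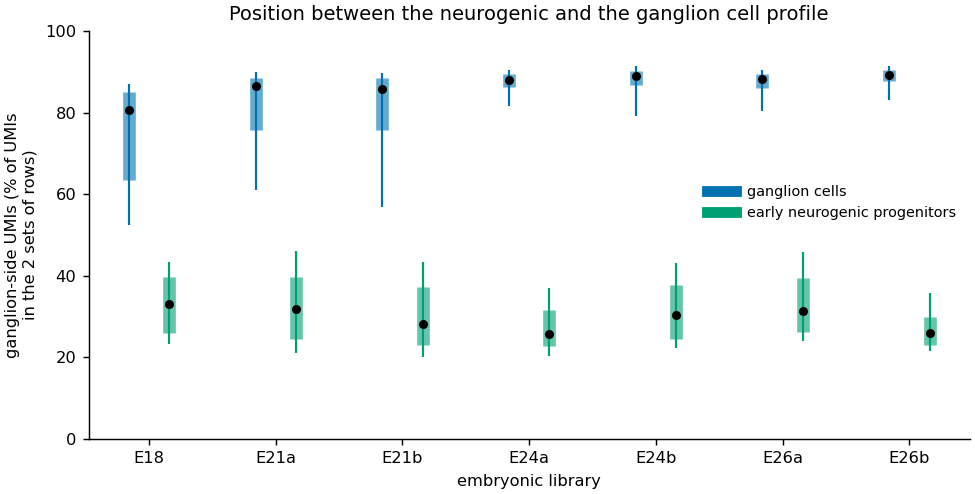
Position of single cells between the early neurogenic and the ganglion cell profile, as the percentage of ganglion-side UMIs at 3000 UMIs per cell, in each embryonic library. Points are medians, thick bars run from the 25th to the 75th percentile and thin lines from the 10th to the 90th; the 10th percentile of ganglion cells was 52.5% to 61.1% at E18 and E21 and 79.2% to 83.2% at E24 and E26.

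Across classes, the profile of ganglion cells lay closest to neurogenic progenitors at E18 and to horizontal cells from E21 on. Over 9052 rows, the correlation of log2 CPM (UMIs per 1e6 UMIs of the class) with neurogenic progenitors of the same library was 0.80 at E18, 0.72 and 0.71 at E21, 0.69 and 0.68 at E24, and 0.77 and 0.63 at E26. With horizontal cells it was 0.75 at E18, where the horizontal sum came from 25 cells, and 0.83 to 0.86 in the later libraries. Classes of 1 library share its depth and its free RNA, and rows are not independent, so these correlations are descriptions. Between ganglion cell sums of different libraries the correlation was 0.98 to 0.99 within a time point, 0.98 to 0.99 between E24 and E26, 0.96 to 0.97 for libraries 3 days apart, and 0.92 to 0.93 between E18 and E26.

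A set of rows at least 4 times higher in ganglion cells than in every other class with 10 cells or more, and at 20 CPM or more, grew from 163 rows at E18 to 281 in E26b. It held 172 and 189 rows at E21, 257 and 231 at E24, and 232 and 281 at E26, with 4 classes to compare at E18 and 5 later. In all 7 libraries 51 rows met this rule. Together they took 1.28% of ganglion cell UMIs at E18 and 1.77% to 1.97% in the later libraries. In neurogenic progenitors they took 0.050% to 0.073%, except in E26a with 0.216%, where the mean neurogenic cell held 9565 UMIs and the median 4656. A low share in progenitors follows from the rule that chose these rows.

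Rows chosen in the same way for the other classes are low in ganglion cells by that choice, and only their course over the libraries is described. The 18 rows of primary RPCs summed to 221 CPM in ganglion cells at E18, 127 and 119 at E21, 45.3 and 54.8 at E24, and 36.2 and 40.9 at E26, which was 5.96% to 8.40% of their summed level in the RPCs themselves. The 59 rows of horizontal cells stayed between 520 and 567 CPM in all 7 libraries, 5.60% to 7.29% of their level in horizontal cells. The 96 rows of photoreceptor precursors went from 466 CPM at E18 to 679 and 668 at E26, with 20 rows at 0 at E18 and 2 and 4 at E26. How much of these low levels came from free RNA in the droplets was not tested.

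To ask how the ganglion cells themselves changed before birth, UMI counts were summed over the ganglion cells of each library, and the 4 libraries of E24 and E26 were compared with the 3 of E18 and E21. Of 15782 rows tested, 2873 (18.2%) passed an adjusted p of 0.05 (edgeR quasi-likelihood test with Benjamini-Hochberg adjustment). Of these, 1563 were higher and 1310 lower at the later ages, and 728 of the higher and 451 of the lower ones differed by at least 2-fold. In 1536 of the higher and 1263 of the lower rows the 2 groups of libraries did not overlap, as called rows rarely can, against 4804 of all 15782 rows tested. The share called was 23.6% of the 208 rows with a mean under 1 CPM, 14.7% of rows with a mean of 1 to 10 CPM, 20.5% at 10 to 100 CPM and 21.5% above 100 CPM, where 237 rows were higher and 122 lower. Drawing 580 ganglion cells from each library gave 2396 calls, and leaving out E26a or E26b gave 1688 and 1711. A sum over the cells of a class cannot tell a change within each cell from a change in which ganglion cells were present. By the scores above, the early libraries held the larger tail toward the neurogenic profile.

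Row 11210 was nearly absent from early ganglion cells and rose sharply. It was at 0.111 CPM at E18, 0.557 and 0.228 at E21, 20.9 and 7.92 at E24, and 45.0 and 58.3 at E26. The early libraries held 7 UMIs of this row in all, and the groups did not overlap. Its log2 fold change was 6.84 ± 0.91 (SE; edgeR adjusted p = 0.00146) and 7.53 without E21a, and the pooled counts gave a ratio of 118 (95% interval for counting error 57.0 to 294). After birth it stood higher still, at 935 to 3381 CPM with a median of 1273, while horizontal cells, neurogenic progenitors and primary RPCs before birth had at most 5.36 CPM.

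Row 30873 also rose, and levelled off earlier. It was at 0.333 CPM at E18, 6.96 and 12.1 at E21, 90.3 and 68.8 at E24, and 129 and 162 at E26, with a log2 fold change of 4.18 ± 0.60 (SE; edgeR adjusted p = 0.00201) and 5.07 without E21b. The time point means went up at every step, and the postnatal libraries, at 99.3 to 240 CPM, overlapped those of E26. In the other 3 classes before birth it reached at most 6.89 CPM, in the neurogenic progenitors of E26a.

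Row 16712 was high in early ganglion cells and faded. It was at 260 CPM at E18, 58.8 and 145 at E21, 5.39 and 10.4 at E24, and 5.82 and 3.96 at E26, a log2 fold change of −4.55 ± 0.48 (SE; edgeR adjusted p = 0.000761) that was −3.89 without E18. All early libraries lay above all later ones. Neurogenic progenitors of the same libraries had at most 9.07 CPM, primary RPCs at most 2.65 and horizontal cells at most 4.35. Before E24 its level was thus higher in ganglion cells than in these classes. Photoreceptor precursors were not examined for this row.

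Row 31203 fell in ganglion cells and was also found in progenitors. In ganglion cells it was at 44.4 CPM at E18, 21.9 and 11.5 at E21, 0.829 and 2.08 at E24, and 1.41 and 0.849 at E26 (log2 fold change −4.24 ± 0.48, SE; edgeR adjusted p = 0.000908; −3.55 without E18). In primary RPCs it went from 32.9 CPM at E18 to 1.44 in E26b, while neurogenic progenitors had at most 7.26. In both ganglion cells and primary RPCs, E18 was highest and the E24 and E26 libraries were lowest.

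Taken as a slope over the 4 ages, 3629 of 16390 rows (22.1%) were related to embryonic day, 1959 rising and 1670 falling (edgeR, adjusted p below 0.05). Of the 2873 rows called between the early and late groups, 2474 were called here as well, none with the opposite sign, in a test of the same libraries. The time point means rose at every step in 965 of the 1563 rows that were higher late, and fell at every step in 707 of the 1310 that were lower. Over all 17330 rows of the fit by time point, 2390 rose and 2257 fell at every step, and a choice of rows by their late and early levels itself favours such an order. Without E18 the slope called 1919 rows.

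The time course was then split into its steps. From E18 to E21, 353 of 17330 rows were called (2.04%), 246 higher and 107 lower. From E21 to E24 there were 938 (5.41%), 586 higher and 352 lower. From E24 to E26 there were 14 (0.0808%), 7 higher and 7 lower, with 919 rows at an unadjusted p below 0.05 and 20 rows called by DESeq2. The steps lasted 3, 3 and 2 days, and the first had a single E18 library, which was assumed to vary like the others, so the counts of the 3 steps were not tested against each other. The E21 to E24 count was 371 without E24a, 434 without E21b and 466 without E21a. The E18 to E21 count was 177 without E21b, and the E24 to E26 count was 24 without E24a and 7 without E26a or E26b.

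**Figure D4:**
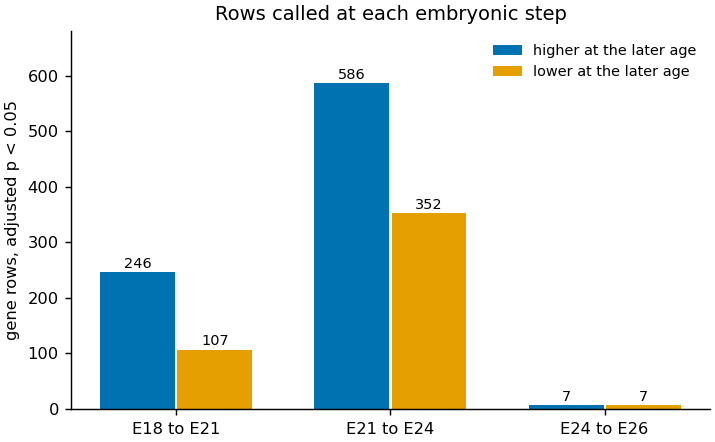
Gene rows called in ganglion cells between neighbouring embryonic time points (edgeR, adjusted p below 0.05, of 17330 rows tested), higher or lower at the later age. The E21 to E24 step called 938 rows, the E18 to E21 step 353 and the E24 to E26 step 14.

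The 2 rows named for the largest rise from E18 to E21 stood higher still at later ages. Row 15169 was at 1.11 CPM at E18 and 24.9 and 21.7 at E21 (log2 fold change 4.27 ± 0.42, SE; edgeR adjusted p = 0.000872), then 50.02 to 86.8 at E24 and E26 and 123 to 217 after birth. Row 20105 was at 2.33 CPM at E18 and 32.0 and 30.8 at E21 (3.64 ± 0.28; adjusted p = 0.00083), then 65.1 to 116 at E24 and E26 and 181 to 485 after birth. Both were rare in the other 3 classes, at most 3.74 CPM and 4.43 CPM. No library of a later age fell to the level of an earlier one in this sequence of E18, E21, the pooled E24 and E26, and postnatal libraries.

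Of the 2 rows named for the largest fall from E18 to E21, the first stood far higher in primary RPCs. Row 9607 was at 32.2 CPM in ganglion cells at E18 and 6.27 and 4.45 at E21 (log2 fold change −2.70 ± 0.27, SE; edgeR adjusted p = 0.000872), but at 646 CPM in primary RPCs at E18, 116 and 72.4 at E21, and 10.7 to 22.0 later. The level in ganglion cells thus lay below that in primary RPCs at each of these ages and followed the same order. Row 1313 was at 23.7 CPM at E18 and 5.43 and 3.20 at E21 (−2.57 ± 0.37; adjusted p = 0.00651), and in horizontal cells at 33.7, 26.005 and 13.1 CPM in the same libraries, from 4, 19 and 15 UMIs, too few at E18 to order the classes.

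Several rows of the later steps moved in all classes of a library at once. Row 4798 rose from 1.67 and 1.37 CPM at E21 to 2.76 in E24a and 115 in E24b (log2 fold change 5.37 ± 1.25, SE; edgeR adjusted p = 0.0331). Its rise rested on E24b, where the other 3 classes stood at 101 to 109 CPM, and without E24b the log2 fold change was 1.03 (adjusted p = 0.351). The call was also lost without E21a (adjusted p = 0.145) or E21b (adjusted p = 0.173).

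Row 15011 was at 63.5 and 38.6 CPM at E21, 3.31 and 1.12 at E24, and 35.5 and 31.3 at E26, so that it fell in the one step (log2 fold change −4.57 ± 0.39, SE; edgeR adjusted p = 0.000407) and rose in the next (4.01 ± 0.40; adjusted p = 0.00357). The E24 libraries lay apart from all others. Neurogenic progenitors, primary RPCs and horizontal cells were likewise at 1.97 to 4.81 CPM at E24 and at 20.3 to 60.9 at the other ages. Without E24a these 2 changes were −5.44 and 4.88, and without E24b −3.78 and 3.24.

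Row 26843 was at 31.2 and 31.3 CPM at E21, at 2.07 in E24a and 0 in E24b, with 3.11 at E18 and 0 and 8.21 at E26. Its fall from E21 to E24 (log2 fold change −5.16 ± 1.14, SE; edgeR adjusted p = 0.0266) lost its call in DESeq2 (adjusted p = 0.605) and without E21a, E21b or E24b (adjusted p = 0.0748 to 0.0886). Without E24a it kept its call, with the only E24 library left at 0. The other 3 classes had 20.6 to 45.2 CPM at E21 and at most 2.61 at E24, and at E26 they were at 0 in E26a and at 7.31 to 17.1 in E26b. Whether such rows follow the animals, the handling or the age cannot be told apart with 2 libraries of unstated origin per time point.

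Of the rows called from E24 to E26, row 32077 rose from 3.18 and 4.72 CPM to 20.8 and 28.8 (log2 fold change 2.55 ± 0.23, SE; edgeR adjusted p = 0.00357) and was at 2.16 to 8.39 CPM after birth. The other 3 classes were higher at E26 as well, with no test of them here: horizontal cells went from 9.39 and 9.08 to 52.6 and 73.8 CPM, neurogenic progenitors from 6.95 and 6.76 to 21.6 and 19.8, and primary RPCs from 4.58 and 8.67 to 18.8 and 26.9. Row 8331 fell from 641 and 508 to 256 and 250 CPM (−1.25 ± 0.16; adjusted p = 0.0214), the call being lost without E26a (adjusted p = 0.102) or E26b (adjusted p = 0.168). The other 3 classes were at 783 CPM or more in every library up to E24 and at 369 to 502 CPM at E26.

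The embryonic ganglion cells were then set beside those after birth. Of 13933 rows tested, 7429 were called (53.3%), 3686 higher and 3743 lower after birth (edgeR, 7 against 7 libraries). Postnatal sums were smaller, at 640859 to 3402923 UMIs over 116 to 273 cells, and with every sum thinned to the smallest 3765 of 7746 rows were called. The other classes in the retina, depth and age all differ between the stages and cannot be told apart. How each library was preserved is not stated and could differ between the stages as well.

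Row 20263 was a late arrival. Before birth it had no UMI at E18 and E21, 3.73 and 0.160 CPM at E24, and 10.6 and 10.0 at E26, and after birth it ranged from 267 to 957 CPM with a median of 834 (log2 fold change 7.43 ± 0.91, SE; edgeR adjusted p = 5.19e-06; pooled ratio 210, 95% interval for counting error 185 to 238). Its appearance at E24 and E26 preceded the larger postnatal level, and the stages did not overlap. Row 21018 had 21 UMIs in all embryonic ganglion cells, none above 1.15 CPM in a library, and 13.8 to 75.1 CPM after birth (6.85 ± 0.56; adjusted p = 1.41e-07; pooled ratio 139, interval 89.9 to 226). Without E26a the 2 changes were 8.04 and 7.83.

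Row 16712, which was high in early ganglion cells, had 4 UMIs in all postnatal ganglion cells, 0 in 4 of the 7 libraries and at most 0.854 CPM (P21). Its fall from the embryonic stage in log2 units was −7.82 ± 1.49 (SE; edgeR adjusted p = 0.000308), −6.90 without E18 and −8.49 without P21, and the pooled counts gave a ratio of 209 (95% interval for counting error 81.7 to 768).

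Row 17801 had 11309 UMIs in embryonic ganglion cells and none in 12932527 postnatal ganglion cell UMIs (edgeR adjusted p = 7.28e-05), at least 732-fold lower when the postnatal group is given 3 counts. Its embryonic level ranged from 5.64 CPM (E26a) over a median of 116 to 467 (E24a) and followed the library more than the age. Neurogenic progenitors ranged from 6.89 to 727 CPM and primary RPCs from 7.14 to 634, both with the lowest value in E26a and the highest in E24a, and horizontal cells from 14.5 CPM in E26a to 1929 in E26b, with 1094 in E24a. E26a was thus lowest in all 4 classes, while the highest library differed in horizontal cells, and the source of these levels was not tested.

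**Figure D5:**
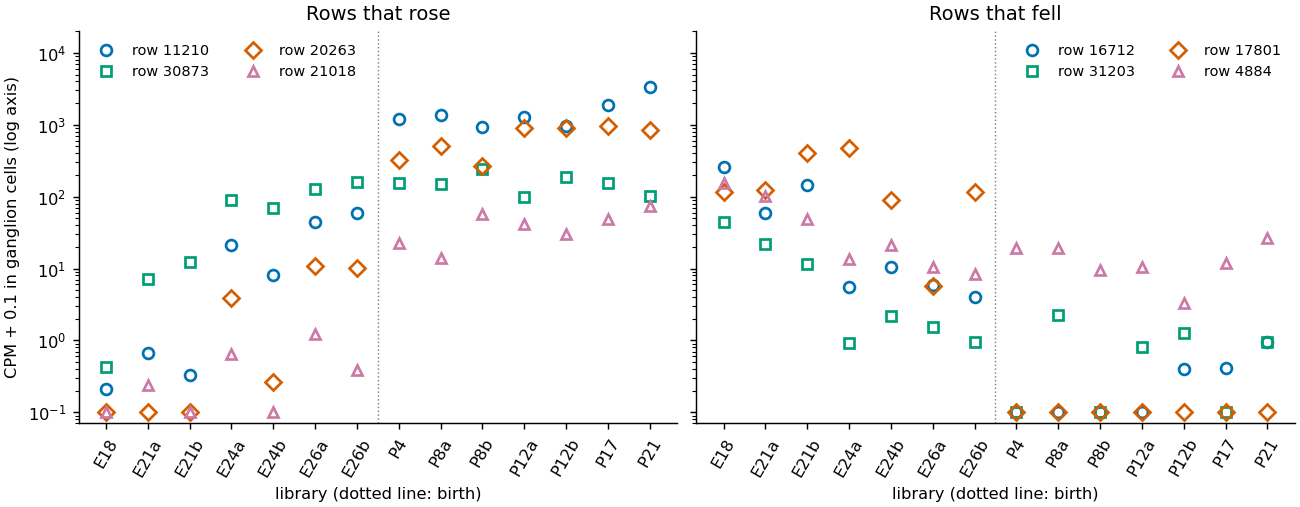
CPM of 8 gene rows in ganglion cells of each library, plus 0.1 so that 0 can be drawn on the log axis; points at the bottom are libraries with no UMI of the row, and points can coincide. Rows 11210 and 20263 climb from under 1 CPM at E18 to 267 CPM or more after birth, row 30873 levels off near E26, row 16712 falls from 260 CPM at E18 to under 1 after birth, and row 17801 is scattered before birth and at 0 after it.

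The last comparison asks which rows changed with embryonic age differently in ganglion cells and in the early neurogenic progenitors of the same libraries. The difference of the 2 changes passed the test in 708 of 16378 rows (4.32%; edgeR with the library as a block), with the ganglion cell change above the progenitor change in 195 rows and below it in 513. In 634 of these rows the change of each class could also be fitted alone. The changes had opposite signs in 441 of the 634, the same sign and the larger size in ganglion cells in 112, and the same sign and the larger size in progenitors in 81. A choice of rows by the difference of the 2 changes itself favours opposite signs, and signs were counted however small the change. In progenitors alone 449 of 10668 rows were called. The share of opposite signs over all rows tested was not counted. Counts of calls depended on the cells and the tool: DESeq2 called 399, 1070 were called without cells above 2 times the median UMI count (436 above and 634 below), and 196 without E18. The progenitors gave far smaller sums, and with all sums thinned to 1211584 UMIs 320 rows were called.

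Row 25387 rose in ganglion cells, from 2.89 CPM at E18 and 3.20 and 3.43 at E21 to 24.2 and 23.9 at E24 and 37.0 and 36.6 at E26. In neurogenic progenitors it was at 7.26 to 15.6 CPM early and 1.65 to 11.7 late. The ganglion cell groups lay far apart and the progenitor groups overlapped (fitted log2 changes 3.30 and −0.40; difference 3.71 ± 0.44, SE; edgeR adjusted p = 0.000218). Horizontal cells held it at 13.0 to 37.4 CPM at all 4 ages, but the E18 value of 16.9 CPM came from only 2 UMIs.

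Row 13980 went from 3.997, 15.9 and 13.4 CPM in the early libraries to 26.4 to 33.3 in the later ones in ganglion cells, and from 6.39 to 8.94 down to 0 to 2.95 CPM in neurogenic progenitors (fitted log2 changes 1.45 and −1.70; difference 3.34 ± 0.52, SE; edgeR adjusted p = 0.00163). Neither class overlapped between the age groups, and the directions were opposite. Against horizontal cells in place of progenitors the difference was 0.24 (adjusted p = 0.975). Horizontal cells held only 9 UMIs of this row before birth, too few to show whether they changed with age. Neurogenic progenitors held 64. In primary RPCs the row was also lower late, at 2.83 to 4.51 CPM against 5.77 to 8.66 early, without overlap.

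Row 11489 had a ganglion cell level of 23.1 CPM at E18 and 31.6 to 48.3 later, a fitted log2 change of 0.47, and its negative difference (−3.72 ± 0.79, SE; edgeR adjusted p = 0.0128) went with neurogenic progenitors at 0 to 0.601 CPM early and 2.46 to 8.86 late. It lost its call in DESeq2 (adjusted p = 0.0537), without E18 (adjusted p = 0.0503) and without E21a (adjusted p = 0.0598), and the difference was −3.03 without E26a. Primary RPCs also had more of it late, 7.75 to 10.4 CPM against 0.268 to 3.27 early.

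Row 4884 fell in ganglion cells, from 153, 102 and 48.1 CPM in the early libraries to 13.5, 21.1, 10.3 and 8.40 in the later ones, and stood at 3.23 to 26.5 CPM after birth. Its fitted log2 change was −2.89, and the difference from neurogenic progenitors, which had 0 to 2.71 CPM throughout, was −3.60 ± 0.87 (SE; edgeR adjusted p = 0.0252). The difference rested on few progenitor UMIs, and without E26a it was −1.63 (adjusted p = 0.567). It also lost its call without E18 (adjusted p = 0.126), without E24a (adjusted p = 0.0543), in DESeq2 (adjusted p = 0.471), with thinned sums (adjusted p = 0.251) and without high-UMI cells (adjusted p = 0.233).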

How the data were processed

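Per the labels and the study's methods, 13LGS retinas were profiled with 10x 3′ v3.1 chemistry, as methanol-fixed cells or nuclei from flash-frozen tissue (which libraries is not stated). The authors aligned reads to HiC_Itri_2 with Cell Ranger 3.1.0, merged libraries with aggr and annotated clusters in Seurat 4.0.4. Cell filters, doublet removal and depth equalisation are not stated there. The authors deposited UMI counts, not normalized, for 34181 rows and 53394 cells, with a cell table of time points and annotations, whose 3 embedding columns were not used. The 30265 deposited gene names could not be paired with rows.

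Library was the time point plus the suffix of the cell name. P1 (6920 cells, 2 suffixes, 1 sample) was not used. All cells were kept and no doublet caller was run. Counts were summed per library and class and tested with edgeR 4.0.16 in R 4.3.3 (filterByExpr, TMM, glmQLFit, glmQLFTest, adjusted p below 0.05). SE is the log2 fold change over the square root of F. Printed CPM use unscaled sums. The fit was tested on data simulated from its own model, with changes planted only in rows at 10 CPM or more. Most of the 2-fold and all of the 4-fold planted changes were recovered. Lower rows and departures from the model were not covered. Relations used exact permutation tests over all orders, with ranks and Wilson intervals from scipy 1.17.1, and DESeq2 1.42.0 was an alternative. Cells, lists and tests were chosen with earlier results of these data known. Named rows were at most 2 rising and 2 falling per comparison: called, not overlapping, at least 20 CPM in the higher group, with the largest log2 fold change.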

Additional observations from a re-analysis of the deposited data

Results flagged for a closer look

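Of 18 groups of libraries examined, 3 held a library far from the rest of its group by Dixon's criterion, which flags about 5% of groups by chance. In the embryonic libraries, E18 had 44.8 ganglion cells per horizontal cell against 1.46 to 4.71 in the other 6. Among the postnatal libraries, P8b had a ganglion cell share of 13.4% against 3.82% to 5.60% in the other 6. Row 16712 was at 0.854 CPM in postnatal ganglion cells of P21, which is 2 UMIs, against 0 to 0.308 CPM in the others.

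Between ganglion cells and early neurogenic progenitors, the change with embryonic age differed by the interaction test (edgeR) in the 4 rows named for it: by 3.71 on the log2 scale in row 25387 (adjusted p = 0.000218), 3.34 in row 13980 (adjusted p = 0.00163), −3.72 in row 11489 (adjusted p = 0.0128) and −3.60 in row 4884 (adjusted p = 0.0252). Row 25387 kept its call without each library in turn (adjusted p at most 0.00191), and so did row 13980 (at most 0.0058).

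In the P1 cells, which entered no comparison, 20.8% of 6920 cells over 2 library suffixes carried the ganglion cell annotation.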

How the results depend on the processing

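No paired analysis was possible because the cell names carry no replicate number of the labels; this concerns the labelled replicates only, since classes were compared within libraries. With the share outside the primary progenitors in place of the share of all cells, rho with embryonic day was −0.90 in place of 0.09. Without single libraries the latter ran from −0.48 (without E18) to 0.24, ganglion cells per neurogenic progenitor from 0.00 (without E18) to 0.74, UMIs per ganglion cell from −0.36 (without E18) to 0.44, and thinned rows per cell from −0.21 (without E26b; −0.12 without E18) to 0.35. With means per cell the UMI ratio to neurogenic progenitors had rho 0.00, and the log2 difference from primary RPCs was 0.055 and not called; without single libraries it was 0.29 to 0.42.

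Calls ranged without single libraries from 1688 to 3139 (late against early), 1919 to 3700 (slope), 177 to 409 (E18 to E21), 371 to 946 (E21 to E24), 7 to 24 (E24 to E26), 6666 to 8000 (birth) and 196 to 913 (against neurogenic progenitors). Rows at a mean of 10 CPM or more gave 2345 slope calls and 3 from E24 to E26. Thinned sums gave 8 from E24 to E26, 3765 at birth and 320 for the difference from progenitors, which was 399 in DESeq2, 1126 without a filter, 1070 without high-UMI cells, 3021 against primary RPCs and 1120 against horizontal cells (the last chosen after seeing the data). The causes were not tested. Of 338 values of named rows under alternatives, 317 kept direction and call, 21 lost the call and 0 changed sign. A named row that an alternative filtered out or gave no adjusted p was left out of this count.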
